A study of Mus musculus with 6 samples.

Results

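The genes described here are 50 axon guidance ligands and receptors, out of 21951 protein-coding genes in the mouse annotation. They comprise 20 ligands (ephrins, Slits, netrins and class 3 semaphorins) and 30 receptors (Eph receptors, Robos, netrin receptors, plexins and neuropilins), named as a list of symbols and all found in the annotation. For each gene, peaks were counted whose midpoint lay within 50 kb of the gene body in each of 3 peak lists. A peak near a gene is a position, and does not show that the gene is regulated from it.

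The lists came from ChIP-seq, in which DNA bound by a protein is recovered with an antibody and sequenced. All embryos were CD1 mice labelled embryonic day 11.5, labelled with the genotype Gli3 3XFlagbio or Hand2 3XFlagbio (the methods name the Hand2 allele 3xFlag), so that the same anti-FLAG antibody recovered both endogenous transcription factors (TFs). Gli3 was assayed in the whole face (frontonasal, maxillary and mandibular prominences) and in the mandibular prominence (MNP) alone, and Hand2 in the MNP, with 2 replicates of pooled tissue in each of the 3 groups. The text describing the series gives day 10.5 where the labels and the methods give day 11.5, and wild-type embryos supplied the mock ChIP. There were 5427 Gli3 peaks in the MNP (median 577 bp wide), 5752 in the whole face (222 bp) and 59583 Hand2 peaks in the MNP (451 bp). Every entry names peaks of both replicates and carries no height, so no value below has an error between embryos, and the depth behind a peak is unknown. No expression is held in these files, so the tissue labels could not be set against marker genes. In pooled tissue, fewer cells with a bound site and weaker binding in each cell cannot be told apart.

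Axon guidance cues steer growing axons and migrating cells by attraction or repulsion. Ephrins are held on the cell surface and are bound by Eph receptor tyrosine kinases on neighboring cells, while Slits, netrins and class 3 semaphorins are secreted and act through Robos, through Dcc, neogenin and Unc5 receptors, and through neuropilins with plexins. The same molecules guide cranial neural crest cells and trigeminal axons in the face, and loss of ephrin-B1 causes craniofrontonasal defects. Gli3 is a zinc finger TF of Hedgehog signaling, whose preferred sequence contains GACCACCC, here called the Gli 8-mer. Hand2 is a bHLH TF of the jaw that binds E-boxes such as CAGATG.

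The 7 stretches below each hold a copy of the Gli 8-mer near a member that lay inside a peak of both Gli3 lists. There were 10 such copies. The 7 printed are those whose whole face entry names carry the lowest mean number tagged mock, described below. That choice was made after the values were seen. Each is 100 bases of GRCm38 (mm10), read 5′ to 3′ on the strand that holds GACCACCC, with the 8-mer in capitals. They lie upstream of *Ephb3* between genes (chr16:21166073-21166172, minus strand), upstream of *Efna2* in an intron of *Midn* (chr10:80152578-80152677, minus), in introns of *Slit3* (chr11:35502383-35502482, minus; chr11:35283121-35283220, minus; chr11:35507929-35508028, plus), in an intron of *Efna3* (chr3:89315626-89315725, plus) and in an intron of *Unc5b* (chr10:60807330-60807429, plus).
Ephb3 upstream: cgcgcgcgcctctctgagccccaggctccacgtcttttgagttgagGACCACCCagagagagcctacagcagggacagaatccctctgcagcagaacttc
Efna2 upstream: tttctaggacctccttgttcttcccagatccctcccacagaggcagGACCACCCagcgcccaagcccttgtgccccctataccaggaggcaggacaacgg
Slit3 intron, a: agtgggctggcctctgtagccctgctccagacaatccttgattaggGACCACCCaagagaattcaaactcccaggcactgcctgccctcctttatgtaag
Slit3 intron, b: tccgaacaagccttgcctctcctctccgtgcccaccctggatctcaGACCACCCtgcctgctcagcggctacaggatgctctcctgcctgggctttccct
Slit3 intron, c: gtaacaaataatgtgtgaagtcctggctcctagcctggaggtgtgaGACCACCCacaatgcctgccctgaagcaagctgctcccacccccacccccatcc
Efna3 intron: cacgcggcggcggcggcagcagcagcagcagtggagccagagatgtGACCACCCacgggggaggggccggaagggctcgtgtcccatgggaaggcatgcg
Unc5b intron: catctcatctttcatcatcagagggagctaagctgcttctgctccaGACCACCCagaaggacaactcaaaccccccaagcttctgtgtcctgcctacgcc
In 6 of the 7 stretches an A follows the 8-mer, and 0 of the 7 hold CAGATG. Over all 17 copies in whole face peaks near members, 12 were followed by A. Over the whole list, 886 of 1180 copies were followed by A (75.1%).

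The 50 members had Gli3 peaks nearby more often than protein-coding genes as a whole, and their genes were also much longer. In the Gli3 MNP list 29 of 50 had at least 1 peak, where 43.2% of the other 21901 genes did. In the Gli3 whole face list 28 of 50 did, against 32.6%, and in the Hand2 MNP list 48 of 50, against 82.6%. The median member was 129 kb long and the median other gene 17.4 kb. Longer genes have longer windows, so each gene was also compared with the other genes of its own length, in 20 bins of equal size. From length alone 22.5 members would be expected to have a Gli3 MNP peak, 21.6 a Gli3 whole face peak and 45.5 a Hand2 peak.

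Summed over members, the Gli3 MNP list gave 52 gene and peak pairs where length gave 35.7 (ratio 1.46). The whole face list gave 59 where 38.7 were expected (1.53), and Hand2 gave 602 where 410 were expected (1.47). These pairs are 49, 57 and 585 separate peaks, since some members are neighbors with overlapping windows (*Efna1*, *Efna3* and *Efna4*; *Epha8* and *Ephb2*; *Robo3* and *Robo4*; *Sema3b* and *Sema3f*). The median member had 1 peak in each Gli3 list and 9 Hand2 peaks, against 0, 0 and 3 for the other genes. Per 100 kb of window, with a peak counted once for each gene near it, the order for Gli3 in the MNP was different. Members held 0.343 Gli3 MNP pairs against 0.470 for other genes, 0.389 whole face pairs against 0.328, and 3.97 Hand2 pairs against 2.76. The windows of other genes were shorter, and a peak could lie in several of them. With each peak and each base of window counted once, the order for Gli3 in the MNP was reversed. Members then held 49 peaks where 44.3 were expected from the density in other genes' windows (ratio 1.11). When each peak was given to the genes that hold it or flank it at any distance, the ratios were 1.89, 2.39 and 2.52. As the peak lists have no replicate values and the genes were chosen with results known, no test was made of these ratios.

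**Figure D1:**
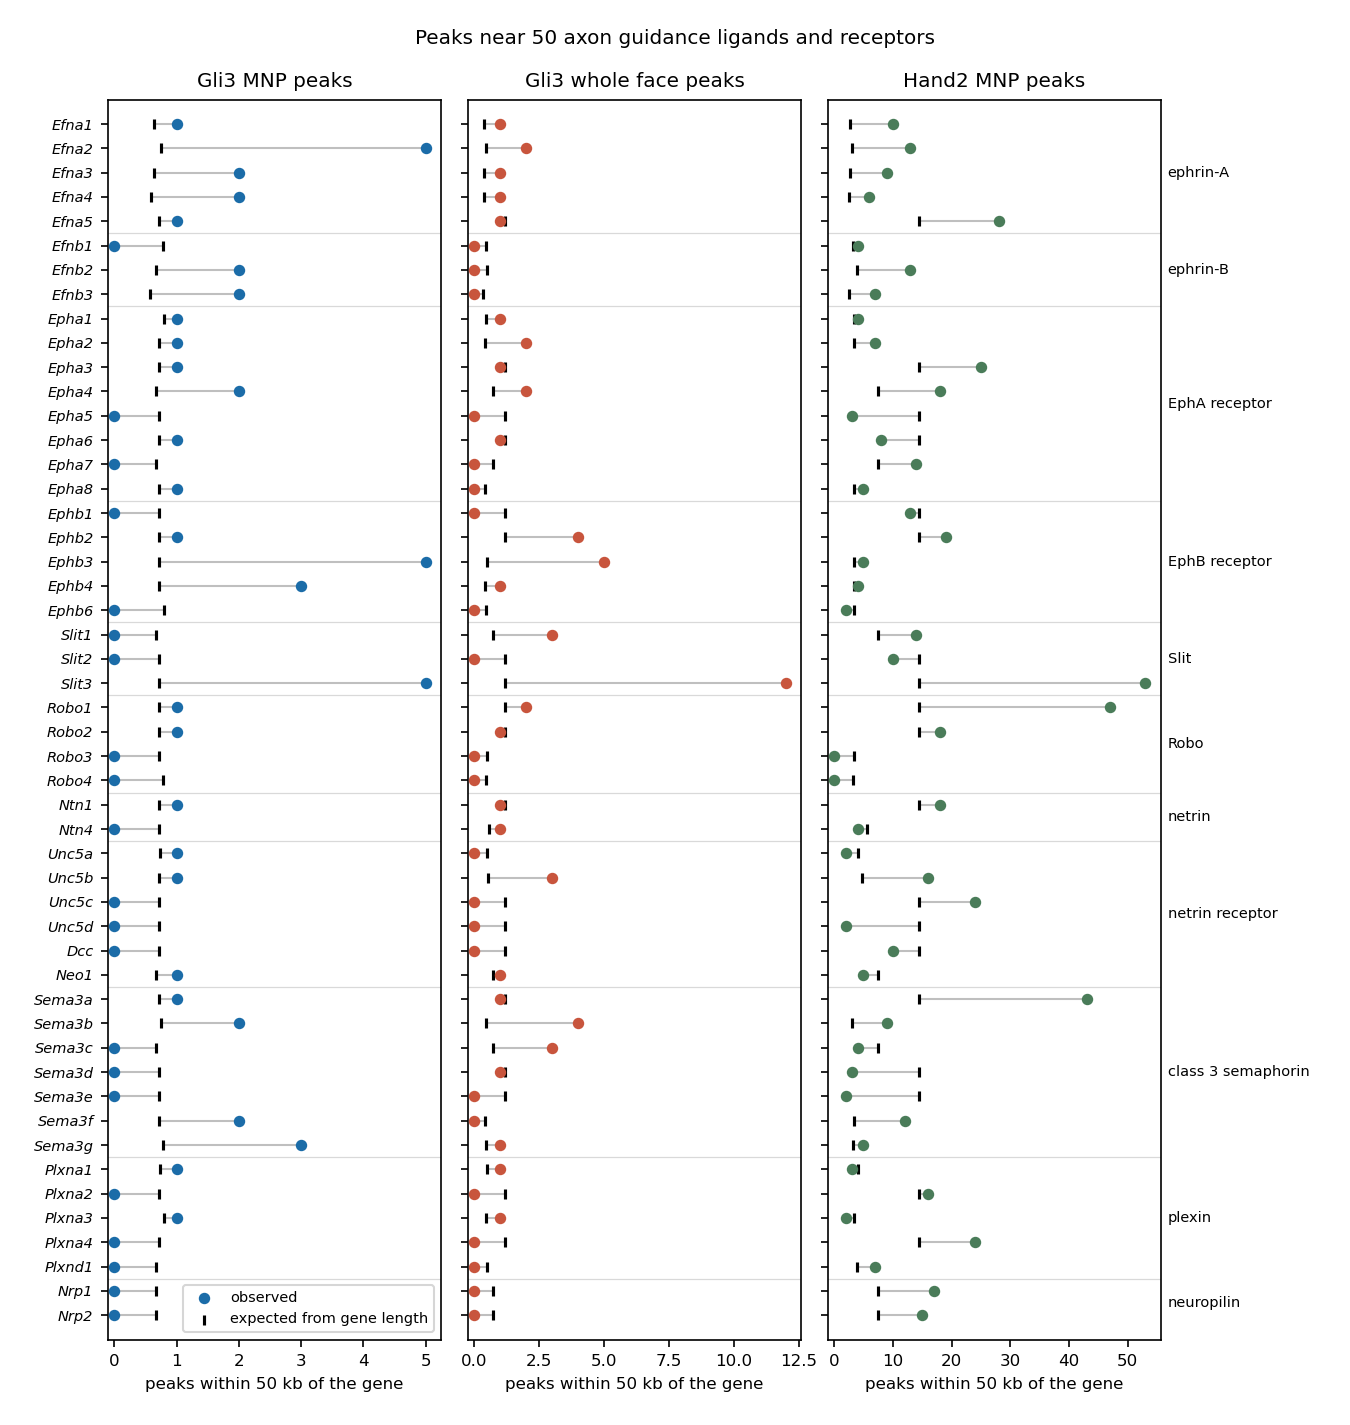
Peaks within 50 kb of each of the 50 members, by family, with 1 panel per list and a scale of its own in each. Dots are observed counts and ticks the mean of other protein-coding genes of the same length; *Slit3* has the most peaks in the whole face (12) and Hand2 (53) panels, and *Robo3* and *Robo4* stand at 0 in all 3.

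The ligands and the receptors differed in how far they exceeded the length expectation. The 20 ligands had 29 Gli3 MNP pairs against 14.0 expected from length (ratio 2.07), 33 whole face pairs against 14.6 (2.26) and 267 Hand2 pairs against 152 (1.76). The 30 receptors had 23 against 21.6 (1.06), 26 against 24.1 (1.08) and 335 against 258 (1.30). With 50 kb windows the ligand ratio was thus above the receptor ratio in each list. The ligand pairs were 26, 31 and 250 separate peaks, as some ligands are neighbors with overlapping windows. No receptor peak was counted more than once. Given to holding or flanking genes, Hand2 peaks had the opposite order (ligands 2.38, receptors 2.60), and the Gli3 ratios drew together in the MNP (2.0 and 1.83). *Slit3* alone held 12 of the 33 whole face pairs, and without it the ligand ratios were 1.81, 1.57 and 1.56. The receptor ratio for Gli3 was below 1 under some windows: 0.948 with 100 kb and 0.978 within the gene body for the MNP, and 0.984 with 10 kb and 0.829 within the gene body for the whole face. By a regression on length in place of bins, the receptor ratio for Hand2 was 1.05 and that of ligands 1.86. The difference between ligands and receptors was not tested.

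By a rule of at least 2 peaks and at least 2 times the number expected from length, 12 members passed in the Gli3 MNP list, 10 in the whole face list and 15 in the Hand2 list. The same rule took 16.1%, 9.61% and 12.7% of the other genes. Those passing in the Gli3 MNP list were *Efna2*, *Efna3*, *Efna4*, *Efnb2*, *Efnb3*, *Epha4*, *Ephb3*, *Ephb4*, *Slit3*, *Sema3b*, *Sema3f* and *Sema3g*. In the whole face list they were *Efna2*, *Epha2*, *Epha4*, *Ephb2*, *Ephb3*, *Slit1*, *Slit3*, *Unc5b*, *Sema3b* and *Sema3c*. In the Hand2 list they were *Efna1*, *Efna2*, *Efna3*, *Efna4*, *Efnb2*, *Efnb3*, *Epha2*, *Epha4*, *Slit3*, *Robo1*, *Unc5b*, *Sema3a*, *Sema3b*, *Sema3f* and *Nrp1*. By the regression on length the Gli3 lists of members were the same, with 12 and 10 passing. For Hand2, where the longest genes share 1 broad bin, *Robo1* no longer passed and *Efna5*, *Ephb2*, *Nrp2* and *Ntn1* did, giving 18 members against 12.5% of other genes.

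**Figure D2:**
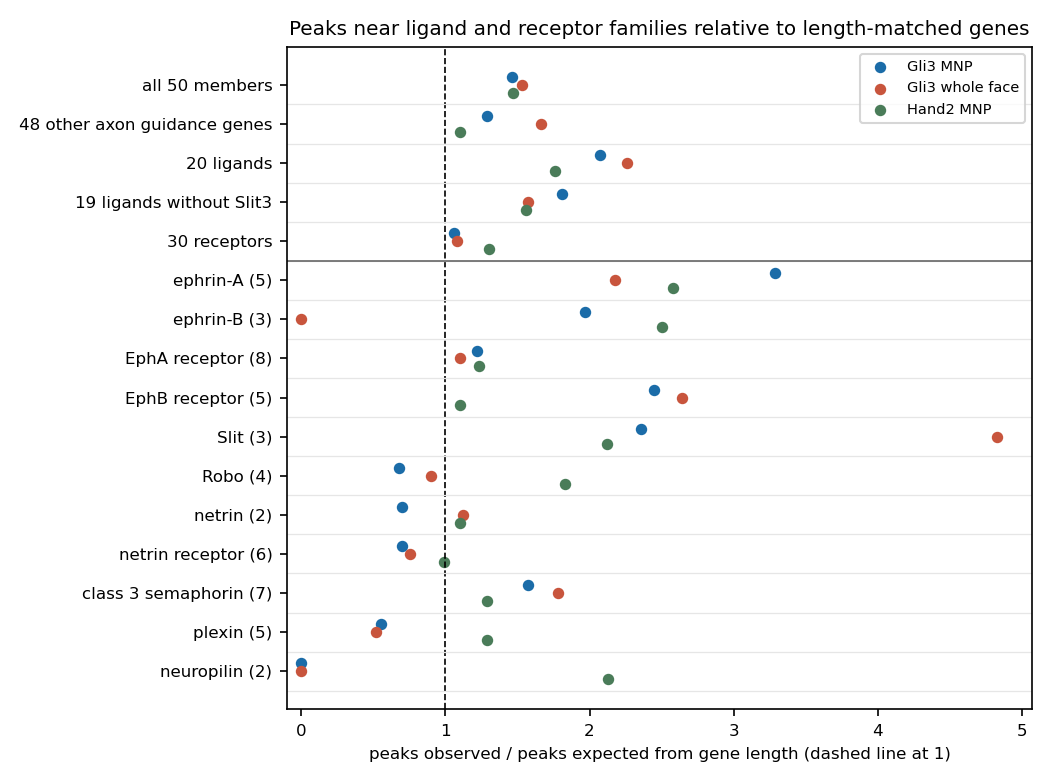
Peaks observed over peaks expected from gene length for all members, a second list of axon guidance genes, ligands, receptors and each family (number of genes in brackets), with 1 dot per list and a dashed line at 1. Ephrin-A genes lie above 2 in all 3 lists, with a peak near several of these neighbors counted for each. Neuropilins lie at 0 in both Gli3 lists (1.34 and 1.44 peaks expected) and at 2.13 for Hand2.

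*Slit3*, a secreted ligand of Robo receptors (ENSMUSG00000056427.10, chr11:35121224-35708507, plus strand), had 5 Gli3 MNP, 12 Gli3 whole face and 53 Hand2 peaks. From length 0.722, 1.19 and 14.4 were expected. All 12 whole face peaks and all 5 MNP peaks lay inside the gene, as did 48 of the 53 Hand2 peaks. As *Slit3* is 587 kb long and its length bin is broad, the regression value is also given: 0.816, 1.51 and 22.1 expected, and ratios of 6.13, 7.95 and 2.40. The 5 MNP peaks all overlapped whole face peaks, at 0.513 kb, 162 kb, 381 kb, 387 kb and 535 kb from the start. Of these 4 held the Gli 8-mer (all but the promoter peak), and 4 overlapped a Hand2 peak (all but the peak at 535 kb). Stretches a, b and c above are the copies at 381 kb, 162 kb and 387 kb. A further 7 whole face peaks had no MNP counterpart; 0 of these 7 held the 8-mer, 3 held GACCTCCC, the variant with T in the middle, and 5 overlapped a Hand2 peak. One of these, 122 kb from the start, held GACCTCCC and CAGATG 91 bp apart.

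The other Slits differed from *Slit3*. *Slit1* had 0 Gli3 MNP, 3 whole face (0.720 expected) and 14 Hand2 peaks (7.50 expected). *Slit2* had 0, 0 and 10 Hand2 peaks, where 14.4 were expected, with 1 Hand2 peak at its own promoter. Of the 3 whole face peaks of *Slit1*, 2 lay inside the gene and overlapped Hand2 peaks, and the other lay at *Lcor* beyond its end and held the Gli 8-mer.

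**Figure D3:**
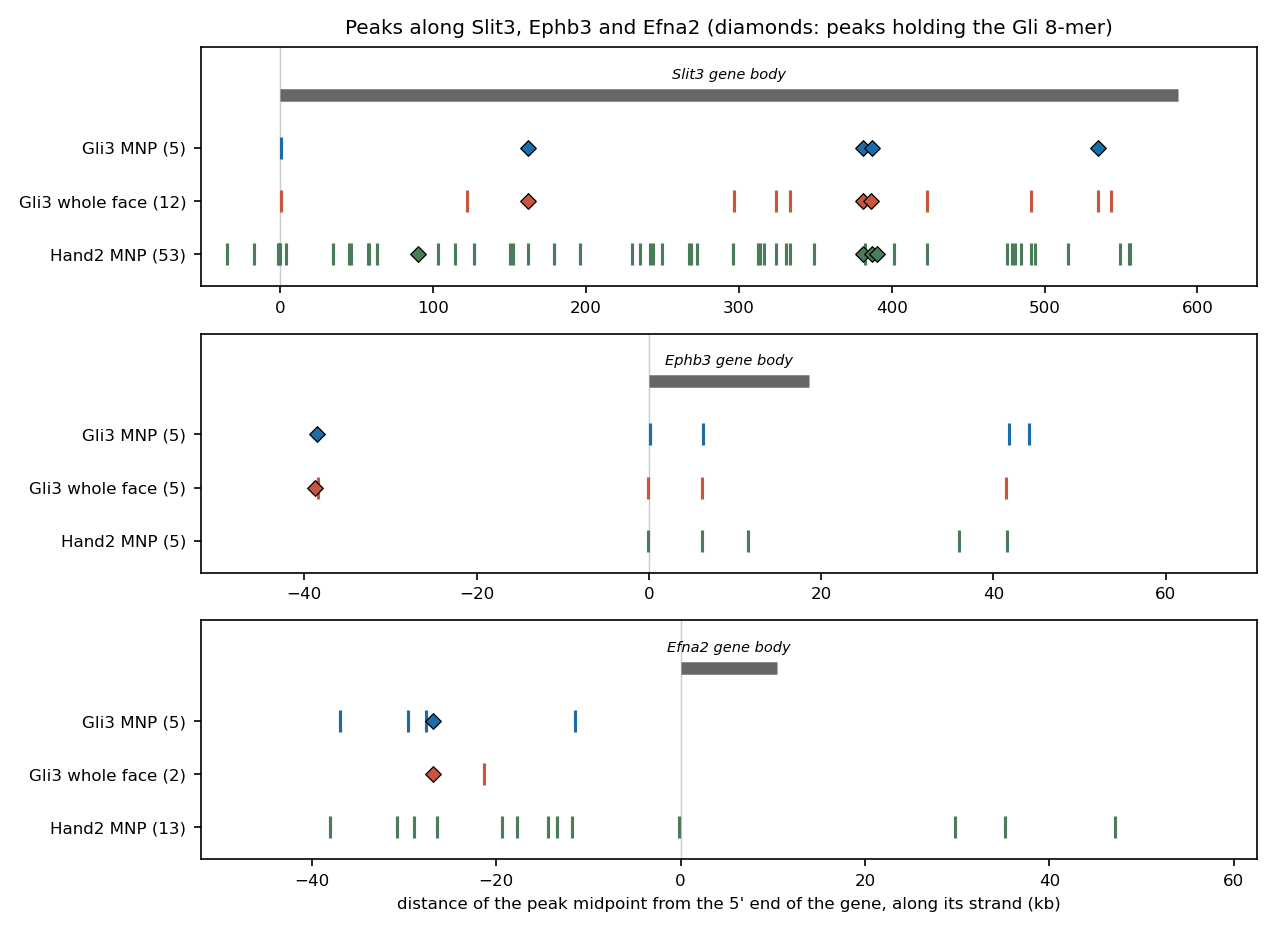
Peak midpoints along *Slit3*, *Ephb3* and *Efna2* against distance from the 5′ end of the gene in kb, with 1 row per list (number of peaks in brackets) and diamonds for peaks that hold the Gli 8-mer. In *Slit3* the 4 MNP diamonds each have a whole face peak beside them, *Ephb3* peaks fall at 4 places shared by both Gli3 lists, and the 5 MNP peaks of *Efna2* all lie upstream.

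Every ephrin-A gene had a peak in all 3 lists, with ratios of 3.29, 2.18 and 2.58. *Efna1*, *Efna3* and *Efna4* lie side by side on chromosome 3, and a single Gli3 peak in an intron of *Efna3*, present in both Gli3 lists, is counted for all 3. It is the Efna3 intron stretch printed above. *Efna4* also had an MNP peak 398 bp inside its start that overlapped a Hand2 peak and no whole face peak. That peak held 2 copies of the Gli 8-mer on opposite strands, with starts 17 bp apart, shown with both copies in capitals because no other Gli3 peak near a member held more than 1 copy (chr3:89337599-89337647, plus strand, in an intron of *Efna4*).
Efna4 promoter: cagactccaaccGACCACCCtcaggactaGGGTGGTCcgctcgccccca

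*Efna2*, a ligand of EphA receptors (ENSMUSG00000003070.6, chr10:80179482-80190010), had 5 Gli3 MNP, 2 whole face and 13 Hand2 peaks, where 0.743, 0.439 and 3.14 were expected. Its 5 MNP peaks lay upstream, and 4 of them were within 1 kb of the starts of *Atp5d*, *Midn* or *Cirbp*. Of the 5, only the peak 26.8 kb upstream, in a *Midn* intron, overlapped a whole face peak and held the Gli 8-mer. *Efna5*, a 277 kb gene, had 1 MNP peak at its promoter, 1 whole face peak 186 kb into the gene and 28 Hand2 peaks (14.4 expected from the bin, 11.4 from the regression).

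No ephrin-B gene had a whole face peak, where only 1.31 were expected from length over the 3 genes. *Efnb2* had 2 MNP peaks and 13 Hand2 peaks (3.84 expected), and *Efnb3* had 2 and 7 (2.49 expected). In both genes 1 of the 2 MNP peaks lay at the gene's own promoter and the other at a neighbor, *Arglu1* and *Trp53*. *Efnb1*, the ephrin whose loss gives craniofrontonasal defects, had 0 Gli3 peaks in either tissue, where 0.786 (MNP) and 0.457 (whole face) were expected. It had 4 Hand2 peaks, where 3.28 were expected.

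Among EphB receptors, *Ephb3* (ENSMUSG00000005958.15, chr16:21204755-21223305, plus strand) had 5 MNP, 5 whole face and 5 Hand2 peaks, where 0.719, 0.495 and 3.42 were expected. The ratios were thus 6.95, 10.1 and 1.46, higher in both Gli3 lists than for Hand2. Both Gli3 lists had peaks 38 to 39 kb upstream, at 2 transcript starts of the gene and 34 kb downstream, and 4 of the 5 MNP peaks overlapped whole face peaks. The upstream site held the Gli 8-mer and did not overlap a Hand2 peak, while both promoter peaks and the shared downstream peak did.
*Ephb4*, the receptor of ephrin-B2 in vessels, had 3 MNP peaks, 2 of them at its own promoter, 1 whole face peak at the start of *Trip6* and 4 Hand2 peaks. *Ephb2* had 1 MNP peak at *Kdm1a*, 4 whole face peaks and 19 Hand2 peaks (14.4 expected from the bin, 8.49 from the regression). None of the 4 whole face peaks of *Ephb2* overlapped a Hand2 or an MNP peak, and 2 held the Gli 8-mer. *Ephb1* had 13 Hand2 peaks and *Ephb6* 2, and neither had a Gli3 peak.

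The EphA receptors as a family were near the number expected from length, with 7 Gli3 MNP pairs (ratio 1.22), 7 whole face pairs (1.10) and 84 Hand2 pairs (1.23). *Epha4*, which binds ephrins of both classes, had 2 MNP peaks, 2 whole face peaks and 18 Hand2 peaks, where 0.671, 0.720 and 7.50 were expected. One MNP peak lay at its promoter and the other 1.25 kb upstream, the latter shared by all 3 lists. *Epha2* had 1 MNP and 2 whole face peaks, and all 3 held the Gli 8-mer and overlapped no Hand2 peak. The MNP peak and whole face peak 9.57 to 9.59 kb upstream of *Epha2* were the same site. *Epha1* had 1 peak in each Gli3 list, at the start of *Zyx*, with the Gli 8-mer and a Hand2 peak over it. *Epha3* had 1 peak in each Gli3 list beyond its end and 25 Hand2 peaks (14.4 expected), 22 of them inside the gene. The Gli3 peak of *Epha6* in each list was at the start of *Arl6*, and *Epha8* had 1 MNP peak and no whole face peak. *Epha5* and *Epha7* had no Gli3 peak, with 3 and 14 Hand2 peaks.

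Among Robo receptors, *Robo1* and *Robo2* had peaks in all 3 lists and *Robo3* and *Robo4*, which are neighbors on chromosome 9, had 0 in every list. *Robo1* had 1 MNP, 2 whole face and 47 Hand2 peaks, 45 of the Hand2 peaks inside the gene and 29 of 47 with CAGATG. Where the length bin gave 14.4 expected Hand2 peaks for this 738 kb gene, the regression gave 27.5. *Robo2* had 1 peak in each Gli3 list, at its own promoter and overlapping a Hand2 peak. For *Robo3* and *Robo4* the Hand2 numbers expected from length were 3.42 and 3.28.

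The class 3 semaphorins had 8 MNP pairs, 10 whole face pairs and 78 Hand2 pairs, with ratios of 1.57, 1.78 and 1.29. *Sema3a*, a repellent of sensory axons, had 1 peak in each Gli3 list, at the same site 65.2 kb from a start and overlapping a Hand2 peak, and 43 Hand2 peaks (14.4 expected from the bin, 18.2 from the regression). *Sema3b* had 2 MNP, 4 whole face and 9 Hand2 peaks in a gene-dense stretch. Its 2 MNP peaks lay at *Hyal2* and *Ifrd2*, and of its 4 whole face peaks 3 lay within 1 kb of the starts of *Hyal1*, *Ifrd2* and *Gnai2*, so 3 of the 4 peaks behind its whole face ratio of 9.11 were at other genes' promoters.
*Sema3c*, which guides cardiac neural crest, had 0 MNP, 3 whole face and 4 Hand2 peaks. Its whole face peaks were 2 at its own promoter and 1 at 44.8 kb upstream, and the upstream one held GACCACCC and CAGATG 88 bp apart. *Sema3f* had 2 MNP peaks, both near its start and both with GACCTCCC, no whole face peak, and 12 Hand2 peaks (3.38 expected). *Sema3g* had 3 MNP peaks, at *Nisch*, at *Bap1* and in an intron of *Dnah1* 51.8 kb from its start; the last was also its only whole face peak. *Sema3d* had 1 whole face peak and 3 Hand2 peaks, and *Sema3e* had 2 Hand2 peaks only. For Hand2, 14.4 were expected for each from the bin, and 9.05 and 9.90 from the regression.

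The receptors of these semaphorins had few Gli3 peaks. The neuropilins *Nrp1* and *Nrp2* had 0 in both lists, where only 1.34 (MNP) and 1.44 (whole face) were expected from length. They had 32 Hand2 peaks together, against 15.0 expected (ratio 2.13). CAGATG, held by 47.1% of all Hand2 peaks, was in 13 of the 17 of *Nrp1* and 12 of the 15 of *Nrp2*. Other semaphorin ligands and receptors went the other way, such as *Sema3b* with 2 of 9 and *Plxnd1* with 1 of 7. The plexins had ratios of 0.550, 0.519 and 1.29. *Plxna1* had 1 MNP peak at its promoter and 1 whole face peak 12.6 kb inside, *Plxna3* had 1 MNP peak at *Fam3a* and 1 whole face peak at its own promoter, and *Plxna2*, *Plxna4* and *Plxnd1* had 16, 24 and 7 Hand2 peaks and no Gli3 peak.

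Netrins had ratios of 0.695, 1.12 and 1.10 in the Gli3 MNP, whole face and Hand2 lists, and their receptors 0.70, 0.753 and 0.990. *Ntn1*, the netrin expressed in the ventral midline of the neural tube, had 1 peak in each Gli3 list at the same intronic site 80.6 kb from its start, which held the Gli 8-mer and no Hand2 peak, and 18 Hand2 peaks (14.4 expected from the bin, 8.59 from the regression). *Ntn4* had 1 whole face and 4 Hand2 peaks. *Unc5b*, a repulsive netrin receptor, had 1 MNP, 3 whole face and 16 Hand2 peaks, where 0.723, 0.520 and 4.78 were expected, and its intronic peak 24.0 kb from the start was in all 3 lists with the Gli 8-mer. *Neo1*, encoding neogenin, had 1 MNP peak at its promoter, 1 whole face peak 12.0 kb inside with the 8-mer, and 5 Hand2 peaks. *Unc5a* had 1 MNP peak and 2 Hand2 peaks. *Dcc*, *Unc5c* and *Unc5d* had 10, 24 and 2 Hand2 peaks and no Gli3 peak.

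Gli3 peaks at a member's own promoter, meaning within 1 kb of any protein-coding start of the gene, were found for 12 members in the MNP list (24.0%), where 17.0% of other genes had one, and for 5 of the 50 in the whole face list, against 6.11%. The 12 were *Efna4*, *Efna5*, *Efnb2*, *Efnb3*, *Epha4*, *Ephb3*, *Ephb4*, *Slit3*, *Robo2*, *Neo1*, *Sema3f* and *Plxna1*. The 5 were *Ephb3*, *Slit3*, *Robo2*, *Sema3c* and *Plxna3*, so that *Ephb3*, *Slit3* and *Robo2* had one in both tissues. Hand2 peaks lay at the promoters of 22 members (44.0%), against 33.6% of other genes. Of the 52 MNP pairs, 14 were at the member's own start and 16 at the start of another gene. Of the 59 whole face pairs these numbers were 7 and 6.

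The 2 tissues were next set side by side. Of the 50 members, 24 had a peak in both Gli3 lists (48.0%, against 23.4% of other genes, with no allowance for length). There were 5 in the MNP list only (*Efnb2*, *Efnb3*, *Epha8*, *Unc5a* and *Sema3f*; 19.9% of other genes), 4 in the whole face list only (*Slit1*, *Ntn4*, *Sema3c* and *Sema3d*; 9.25%) and 17 in neither (47.5%). Having a peak in both lists does not mean having the same peak. Peaks that themselves overlapped between the lists lay near 18 members in each, against 17.4% of other genes for MNP peaks and 17.4% for whole face peaks. From length 10.5 members were expected in each. Of the 49 MNP peaks near members 23 overlapped a whole face peak (46.9%, 95% Wilson interval 33.7 to 60.6), against 39.2% of the list, and of the 57 whole face peaks 24 overlapped an MNP peak (42.1%, 30.2 to 55.0), against 37.6%. Both intervals contain the share of the whole list; they cover counting error only.

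The numbers in the whole face entry names are the only values given per replicate. Each name carries numbers tagged mock and numbers tagged input for each replicate. Those tagged mock were used, taking the lowest where several peaks were merged. Mock and input numbers went together (Spearman's rho 0.98 in replicate 1 and 0.99 in replicate 2). No source used here says what they count, but over the list the lower numbers went with sharing. When entries were ordered by number and divided into 10 equal parts, 94.6% of the entries with the lowest numbers overlapped an MNP peak, and 4.52% of those with the highest. The numbers of the replicates went together (Spearman's rho 0.79 over 5752 entries merged from both). Among members the lowest were the peak 33.8 kb downstream of *Ephb3*, numbered 63 in replicate 1 and 24 in replicate 2, and the peak upstream of *Ephb3* printed above, numbered 108 and 66. They were followed by the *Dnah1* intron peak near *Sema3g* (159 and 88), the *Arl6* peak near *Epha6* (230 and 183) and an intronic peak of *Slit1* (327 and 487). The first 4 of these were shared with the MNP list and the *Slit1* peak was not. Over all members, the 24 shared peaks had median numbers of 1562 and 1592, and the 33 found in the whole face list alone 6448 and 4831.

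**Figure D4:**
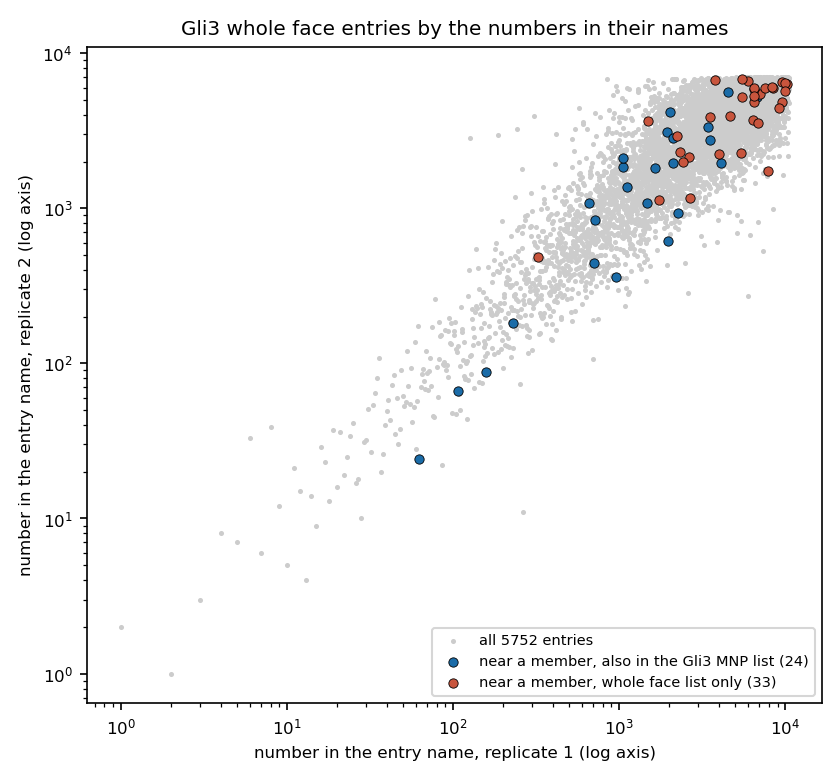
Number tagged mock in the entry name (the lowest where peaks were merged), replicate 1 against replicate 2, both on log axes. All 5752 Gli3 whole face entries are shown (grey), with peaks near members in color. The 24 peaks shared with the MNP list (blue) lie mostly at lower numbers than the 33 found in the whole face list alone (red).

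Gli3 peaks near members were then split by whether they shared 1 bp or more with a peak of Hand2. In the MNP, 34 of 49 overlapped one (69.4%, 55.5 to 80.5), against 61.4% of the list, and in the whole face 32 of 57 did (56.1%, 43.3 to 68.2), against 47.6%. Each interval contains the share of its whole list. Members with an MNP peak that overlapped Hand2 numbered 23 (29.7% of other genes) and with one that did not 15 (22.0%). For the whole face these were 17 (16.7%) and 17 (21.5%). These shares make no allowance for length. From length, 15.6 and 11.0 members were expected for the MNP, and 11.9 and 14.5 for the whole face. The ratio to length was 1.57 for MNP pairs with Hand2 and 1.27 without, and 1.72 and 1.35 for the whole face. Hand2 peaks that overlapped no Gli3 peak of either tissue lay near 48 members (44.8 expected from length), against 80.1% of other genes. By number, *Slit3* had the most Hand2 peaks that overlapped a Gli3 peak of either tissue, 9 of its 53. As a share of their Hand2 peaks, several members had more, among them *Sema3g* (4 of 5) and *Ephb3* (3 of 5). Others were *Epha1* and *Ephb4* (2 of 4 each), *Sema3b* (3 of 9), and *Efna2* and *Efnb2* (4 of 13 each). Many Hand2 peaks of these members lay at the start of another gene. These were 3 of 5 for *Sema3g*, 2 of 4 for *Epha1*, 5 of 9 for *Sema3b* and 7 of 13 for *Efna2*. For *Ephb4* and *Efnb2* there was 1 each, and for *Ephb3* 0. The count was 0 of 24 for *Plxna4*, 0 of 24 for *Unc5c* and 0 of 17 for *Nrp1*. Such overlap was rare over the whole Hand2 list too, at 5.89% of peaks with a Gli3 MNP peak and 4.54% with a whole face peak.

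The Gli 8-mer was held by 13 of the 49 MNP peaks near members (26.5%, 16.2 to 40.3), against 13.3% of the list, and by 17 of the 57 whole face peaks (29.8%, 19.5 to 42.7), against 19.8%. In the MNP the interval lies above the share of the whole list, and in the whole face it begins just under it. *Slit3* gave 4 of the 13 MNP peaks, and without its peaks 20.5% of 44 held the 8-mer (11.2 to 34.5), an interval that contains 13.3%. The members concerned were 16 in all: *Efna1*, *Efna2*, *Efna3*, *Efna4*, *Epha1*, *Epha2*, *Epha4*, *Ephb2*, *Ephb3*, *Slit1*, *Slit3*, *Ntn1*, *Unc5b*, *Neo1*, *Sema3c* and *Sema3g*. Most of these peaks lay away from promoters, 10 of 13 in the MNP and 16 of 17 in the whole face. The lists as a whole went the same way, so this was not particular to members. In the MNP list 23.9% of peaks away from promoters held the 8-mer, against 13.3% of all peaks. Of all whole face peaks only 22.3% lay within 1 kb of a start. Among the 20 MNP peaks near members that lay over 1 kb from any start, 10 held the 8-mer (95% interval 29.9% to 70.1%), against the 23.9% of the list. Without *Slit3* the share was 37.5% of 16 (18.5 to 61.4). In the whole face it was held by 11 of the 25 peaks without Hand2 (44.0%, 26.7 to 62.9; 26.6% of the list) and 6 of the 32 with Hand2 (18.8%, 8.89 to 35.3; 12.3%). Peaks at shared sites such as the *Efna3* intron were counted once.

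**Figure D5:**
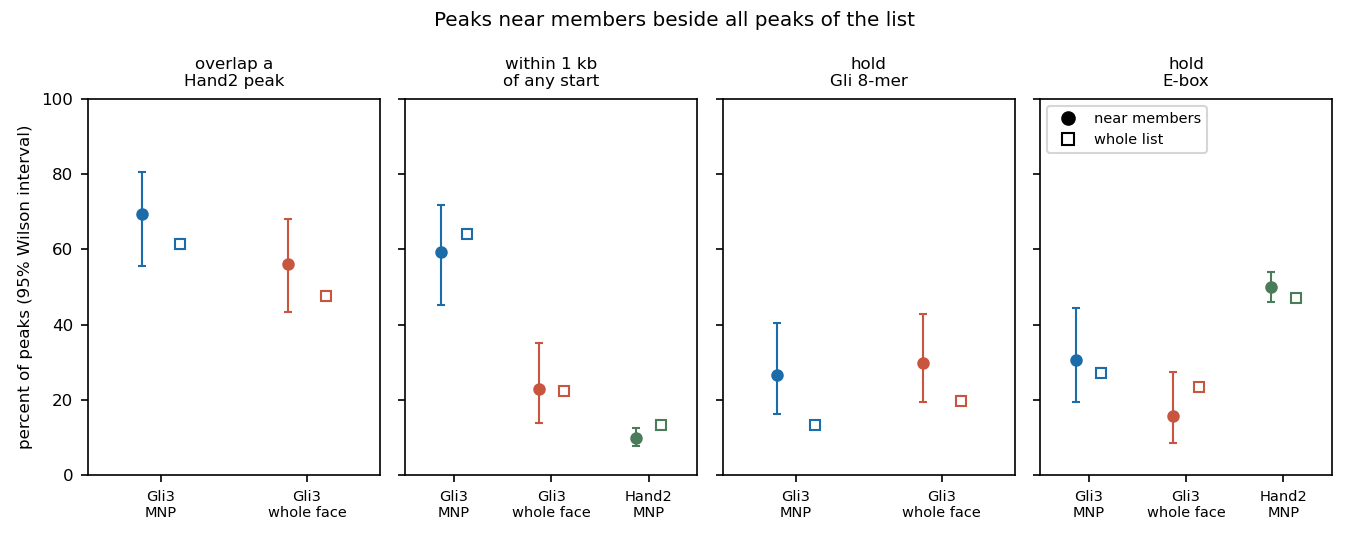
Percent of peaks that overlap a Hand2 peak, lie within 1 kb of any protein-coding start, hold the Gli 8-mer or hold the E-box CAGATG, for peaks near members (filled) and for all peaks of the list (open), with 95% Wilson intervals that cover counting error only. For the 8-mer in the MNP list, 26.5% near members stands above 13.3% of the list, and for CAGATG in the Hand2 list 50.1% stands beside 47.1%.

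GACCTCCC was held by 3 of the 49 MNP peaks (6.12%, 2.10 to 16.5; 6.60% of the list) and 5 of the 57 whole face peaks (8.77%, 3.81 to 18.9; 6.17%). CAGATG was held by 293 of the 585 Hand2 peaks (50.1%, 46.0 to 54.1), against 47.1% of the list, a difference within counting error. A GACCNCCC within 100 bp of a CAGATG was held by 0 of the 49 MNP peaks, where 3.52% of the list did, and by 2 of the 57 whole face peaks (3.51%; 4.57% of the list), the *Slit3* and *Sema3c* peaks described above. All searches were for the exact letters on both strands. GACCNCCC includes GACCACCC and GACCTCCC, and a match says only that these letters are in the peak.

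A second list of 48 genes of the same pathways, among them class 4 to 7 semaphorins, plexin B and C1 receptors and intracellular effectors of guidance signals, was counted the same way. Of these, 31 had a Gli3 MNP peak (22.2 expected from length), 36 a whole face peak (19.4) and 47 a Hand2 peak (43.6). The ratios of pairs were 1.29, 1.66 and 1.10. The Gli3 ratios were thus above 1 in both lists of genes, while for Hand2 the 50 ligands and receptors had 1.47 and the 48 others 1.10. That difference was not tested.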

How the data were processed

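Per the labels and methods, the authors aligned single-end reads to mm10 using bwa, and combined replicate peaks with bedtools. HOMER is also named in the submitters' processing notes. The peak caller was not given in the sources used here. The deposited files hold positions and names, with no score, fold or read count. Groups came from the labels.

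Sequence and genes came from GRCm38 (RefSeq) and GENCODE M21, whose chromosome lengths match mm10. A peak was counted for every gene whose body lay within 50 kb of its midpoint. Expected numbers are means of the other protein-coding genes in 20 bins of window length. Shares carry 95% Wilson intervals. Genes are those with the most peaks or highest ratios (5 per list), a Gli3 peak at their start, a Gli 8-mer, or no peak, and every member is given by family. Members, lists and rules were chosen with earlier results of these data known, so no p-value is given. The programs (Python 3.11.15, pandas 2.3.3, scipy 1.17.1, statsmodels 0.14.6, pyfaidx 0.9.0.4, matplotlib 3.10.9) were tested on simulated peaks. Alternatives changed the window, the assignment, the peaks kept, the length allowance, the overlap, the promoter distance and the searched width.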

Additional observations from a re-analysis of the deposited data

How the results depend on the processing

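All 33 alternative ratios of observed to expected peaks over the 50 members stayed above 1, the lowest being 1.11 for Gli3 in the MNP with each peak counted once. The number of members with a peak was above that expected from length in 62 of 63 values; the exception was whole face peaks without Hand2 with a 10 kb window. In the counts that follow, brackets hold the number of members expected from length. Within the gene body, members with a peak fell to 16 (11.9) for Gli3 MNP and 18 (12.9) for the whole face. With and without Hand2 they were 12 (7.82) and 6 (4.92) for the MNP, and 11 (6.97) and 9 (8.40) for the whole face. With a 10 kb window, peaks without Hand2 gave 8 (6.62) for the MNP and 10 (10.1) for the whole face. When only the gene with the nearest start was counted, the whole face gave 18 (13.4). With and without Hand2 these were 15 (7.84) and 8 (5.19) for the MNP, and 11 (7.21) and 9 (8.67) for the whole face. Peaks of median width or wider gave 14 (9.86) and 6 (4.76) for the MNP with and without Hand2. Without promoter peaks the MNP gave 17 (8.34), and 12 (5.12) and 7 (4.10) with and without Hand2. The expected numbers thus fell too, and some counts were close to them.

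Counting the holding or flanking genes gave ratios of 2.39 (whole face) and 2.52 (Hand2), for ligands 2.38 (Hand2), and for receptors 1.83, 2.03 and 2.60 (MNP, whole face, Hand2). Counting the nearest start gave 1.80 (Hand2), with receptors at 1.68 (MNP) and 1.74 (Hand2). The regression on length gave 1.30 for Hand2, with receptors at 1.05. The ligand ratio exceeded the receptor ratio in 9 of 9 alternatives for either Gli3 list and 8 of 9 for Hand2. By excess of peaks over expectation, ligands led in 7, 9 and 5 of the 9. Receptors gave 1.45 for Hand2 with 10 kb and 1.46 in the gene body, and passed below 1 at 0.948 (MNP, 100 kb), 0.978 (MNP, gene body), 0.984 (whole face, 10 kb) and 0.829 (whole face, gene body). The cause was not tested. Hand2 overlap in the MNP was 51.0% when 50% of the peak had to be covered (44.4% of the list) and 49.0% for midpoints (45.8% of the list). Of the 20 MNP peaks near members away from promoters, 50% held GACCACCC (23.9% of such peaks in the list). CAGATG was in the middle 200 bp of 31.1% of the 585 Hand2 peaks near members (28.2% of the list). The regression for ligands and receptors, shares without *Slit3*, the 5′ end as only start, the ratios without *Slit3* (1.35, 1.25 and 1.39) and leaving out peaks at other genes' starts (1.64, 1.59 and 1.51) were chosen after seeing the data.

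No paired analysis was possible because each list merges both replicates and every entry names both; leaving out a replicate was not run for the same reason. Depth is unknown, so a member without a peak cannot be told from one whose peak was missed.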
